A study of Mus musculus with 4 samples.

Results

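The insulin-like growth factors and their binding proteins were followed across the cell classes of the mouse pituitary in 8 genes, Igf1, Igf2, Igfbp2, Igfbp3, Igfbp4, Igfbp5, Igfbp6 and Igfbp7, of the 55357 genes in the deposited table. The 8 genes were taken by name, and the choice was made with earlier results of these data known. The libraries came from male mice that were 4 weeks old at the start and then fed for 12 weeks, 2 libraries from a high-fat diet (HFD) group and 2 from a normal diet (ND) group, each made from 3 pooled pituitaries of one group. All were single-cell 3′ libraries on the 10x Genomics platform, in which a unique molecular identifier (UMI) marks each captured transcript. No genotype, strain or transgene is named. The labels also give a cell line, Lbt2, and the cell type gonadotroph for every library, but gonadotroph-like cells were 2.68% of the cells, and the data were read as whole gland.

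Insulin-like growth factors are secreted peptides that act through the IGF1 receptor and, in the case of IGF2, are also cleared by the IGF2 receptor. In the classical view pituitary growth hormone drives Igf1 transcription in liver and other target tissues, and circulating IGF1 feeds back on the somatotrophs that make growth hormone. The IGF-binding proteins hold the peptides outside the cell, prolong their half-life and restrict or deliver them to the receptor, and proteases such as pappalysins release them again. IGFBP7 binds IGFs weakly and is found in vessel walls and matrix.

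Igfbp2 and Igfbp5 are neighbours on mouse chromosome 1 and are transcribed towards each other, and Igfbp3 and Igfbp1 are neighbours on chromosome 11. The 120 bases before the annotated start are shown for the 6 binding protein genes, each of which was far higher in some classes than in others (highest in stem or folliculostellate-like cells for Igfbp5, endothelial-like cells for Igfbp3, fibroblast-like cells for Igfbp2, Igfbp6 and Igfbp7, and pituicyte-like and fibroblast-like cells for Igfbp4). They are from RefSeq, build GRCm38.p6, which held a start for all 8 genes, and are written 5′ to 3′ on the gene's strand. Capitals mark TATAAA or GGGCGG, searched on both strands.
Igfbp2 (chr1:72824360-72824479, plus strand, the first of its 2 listed starts): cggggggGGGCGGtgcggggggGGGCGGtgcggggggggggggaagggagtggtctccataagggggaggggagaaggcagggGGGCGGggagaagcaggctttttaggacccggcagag
Igfbp5 (chr1:72874866-72874985, minus strand): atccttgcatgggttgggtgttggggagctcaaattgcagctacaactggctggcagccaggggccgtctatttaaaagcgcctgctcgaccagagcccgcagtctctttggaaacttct
Igfbp3 (chr11:7213924-7214043, minus strand): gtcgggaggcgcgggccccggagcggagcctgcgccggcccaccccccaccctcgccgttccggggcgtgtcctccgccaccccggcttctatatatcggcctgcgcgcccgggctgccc
Igfbp4 (chr11:99041124-99041243, plus strand): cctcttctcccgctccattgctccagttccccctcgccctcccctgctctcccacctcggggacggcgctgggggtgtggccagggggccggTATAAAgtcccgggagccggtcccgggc
Igfbp6 (chr15:102144066-102144185, plus strand): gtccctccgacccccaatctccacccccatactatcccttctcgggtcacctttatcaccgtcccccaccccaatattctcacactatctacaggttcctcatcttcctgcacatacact
Igfbp7 (chr5:77408046-77408165, minus strand): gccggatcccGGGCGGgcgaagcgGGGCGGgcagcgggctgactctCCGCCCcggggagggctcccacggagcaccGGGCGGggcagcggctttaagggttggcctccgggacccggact
The Igfbp7 window held 4 matches to GGGCGG and the Igfbp2 window 3, and the Igfbp4 window held the only TATAAA match among those shown. Of all 32851 windows of this length in the table, 26.5% held GGGCGG and 6.34% held TATAAA. The windows of Igfbp3 (79.2% G or C), Igfbp7 (78.3%), Igfbp2 (75.0%) and Igfbp4 (72.5%) were richer in G and C than the median window (54.2%), and those of Igfbp5 (55%) and Igfbp6 (53.3%), which held neither motif, were close to it. The Igfbp3 window held neither motif either, and the window of the second Igfbp2 start, which is not shown, held none and was 53.3% G or C. These matches are letters in a window and were not tested as sites.

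After filtering, 36004 cells remained of 40406 barcodes, with a median of 7556.5 UMIs per barcode before filtering. The barcodes end in 4 numbers that no source ties to a library or a diet. They were therefore treated as 4 unlabelled sets (8925 to 9122 kept cells each), no HFD and ND comparison was made, and no p-value is given. The sets are not replicates of a group, and ranges over them are descriptions. Between 20 and 30 barcode sequences occurred in both sets of a pair. Cells were clustered without the 8 genes and named from marker lists: endothelial-like clusters passed 7 of 7 endothelial markers, stem or folliculostellate-like clusters 6 to 9 of 10, fibroblast-like clusters 6 or 7 of 8, and macrophage or microglia-like clusters 6 or 7 of 7. Of 18 named classes, 13 had at least 20 cells in every set and were ranked. Pituicyte-like cells (232 cells, the glia of the posterior lobe) had 7 cells in set 2 and were not ranked, and 3922 cells stayed unnamed.

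A level is the share of a class's UMIs that belong to a gene, as counts per 1000000 UMIs (CPM), with an exact Poisson 95% interval that covers counting error only. Each UMI counts a transcript end, so levels were not divided by gene length. The binding protein genes were high in non-hormonal cells, and each had its own distribution. Igfbp3 led in endothelial-like cells, Igfbp5 in stem or folliculostellate-like cells, and Igfbp2, Igfbp4, Igfbp6 and Igfbp7 in fibroblast-like cells. A gene was said to lead in a class when that class had its highest CPM in each of the 4 sets, with at least 20 counts there. Of the 7 members with enough counts 6 led in a class, and 36.8% of the 15412 genes with enough counts did so. Fibroblast-like cells led for 4 of the 7 members and for 4.45% of all genes, endothelial-like cells for 1 member and 4.8% of genes, and stem or folliculostellate-like cells for 1 member and 4.89% of genes. The lead of Igfbp4 rests on pituicyte-like cells not being ranked. Without set 2 they could be ranked, and neither class then led. Pituicyte-like cells were higher over the remaining sets together, but lower than fibroblast-like cells in set 3 (789 against 820 CPM).

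**Figure D1:**
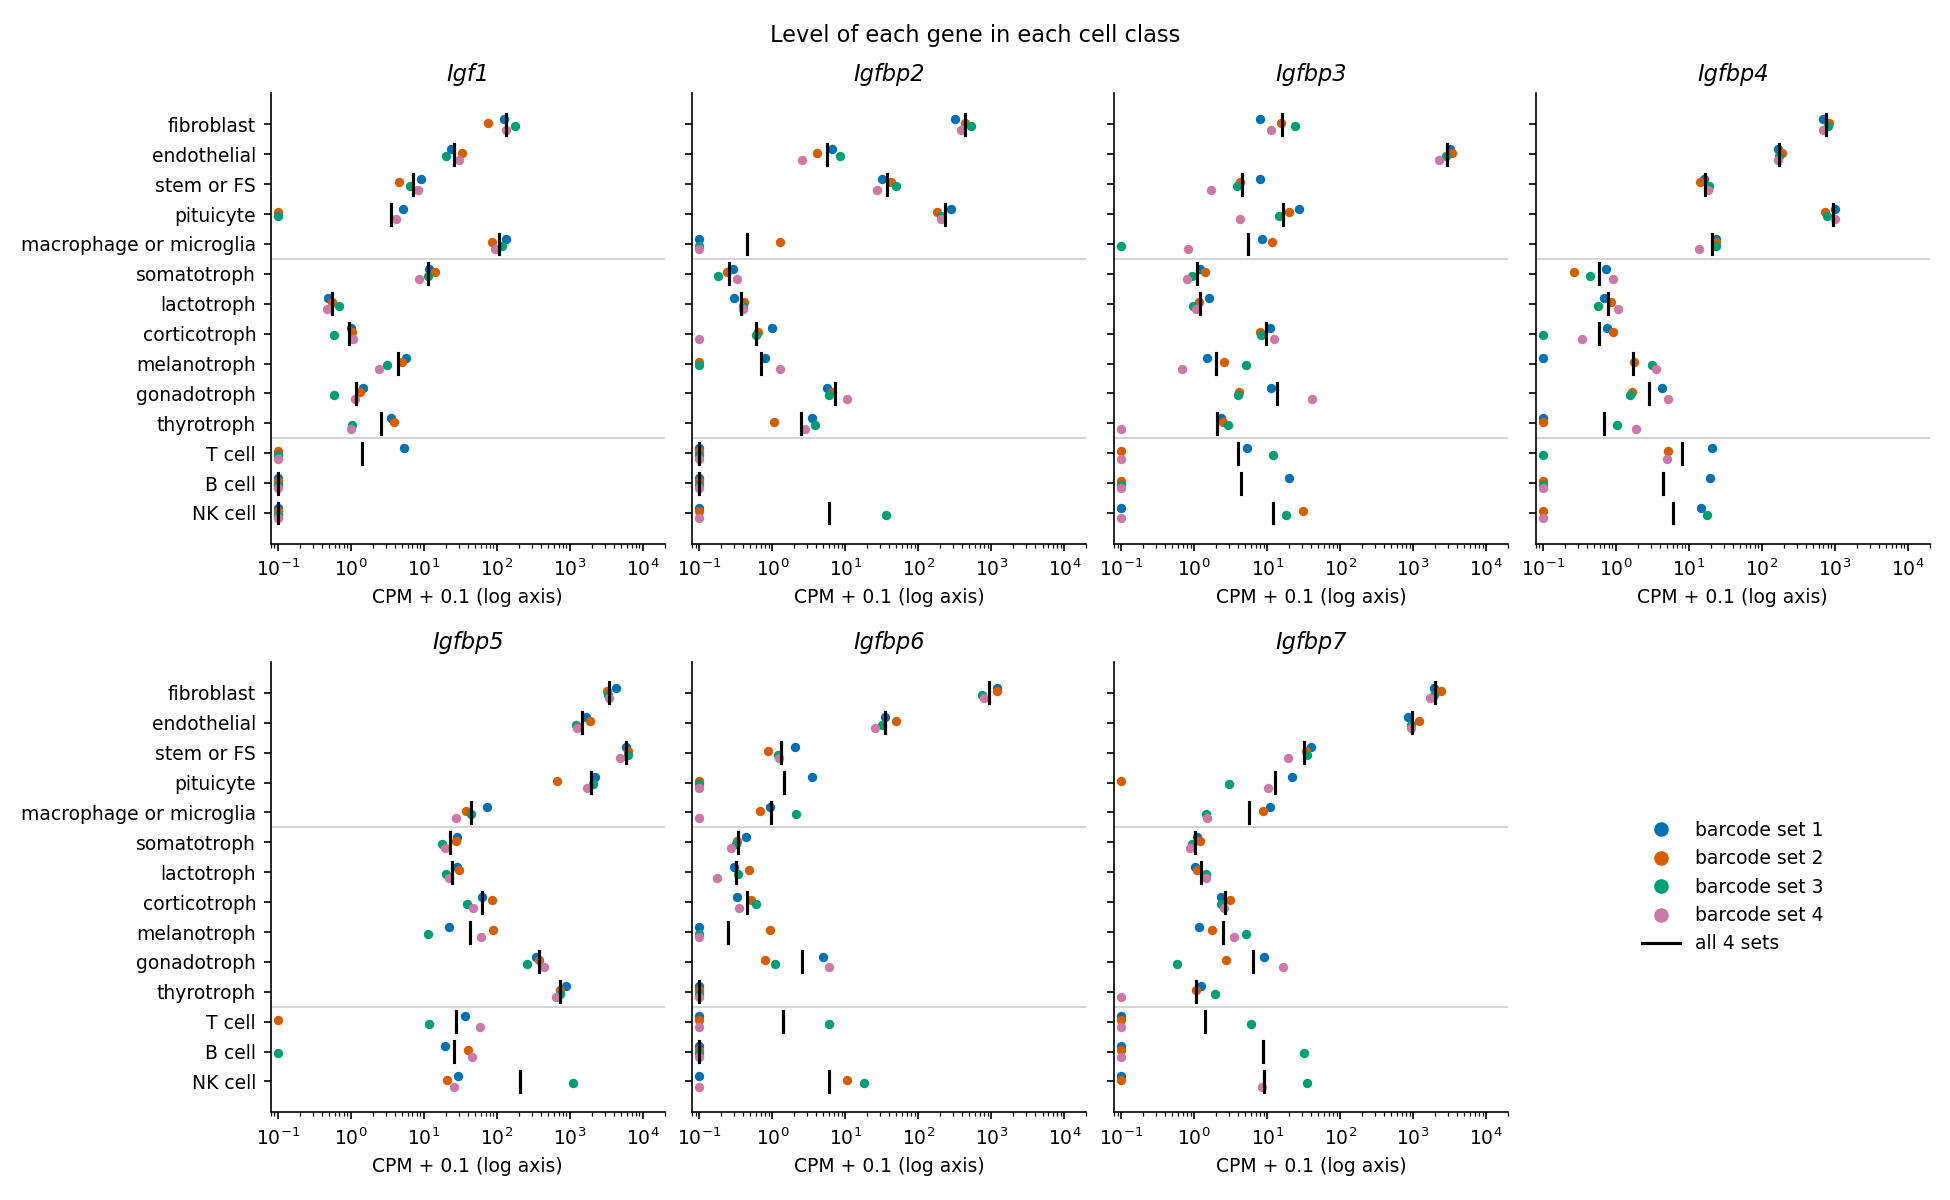
Level of 7 genes (x axis, CPM + 0.1 on a log axis, so that 0 is drawn at 0.1) in 14 cell classes (y axis), with a point for each of the 4 barcode sets and a black bar for all cells of the class. Non-hormonal tissue classes are at the top, hormone classes in the middle and lymphocytes at the bottom, and Igfbp3 is over 2000 CPM in endothelial-like cells and under 50 CPM in every other class shown.

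Igf1 encodes the main circulating growth factor of the axis (chromosome 10, 87858265 to 87937042, plus strand, GRCm38, with Igf1os on the other strand). It was highest in fibroblast-like cells (133.9 CPM, 95% interval 117 to 153, 224 UMIs) and macrophage or microglia-like cells (106.3 CPM, 98.1 to 115, 617 UMIs). In sets 1 to 4 the level was 126, 76.4, 176 and 135 CPM in fibroblast-like cells and 132, 87.0, 118 and 95.5 CPM in macrophage or microglia-like cells. Fibroblast-like cells were the higher of the pair in sets 3 and 4 and macrophage or microglia-like cells in sets 1 and 2, so the ranges overlapped and neither class led. The call depends on how fibroblast-like cells were named. With each cell classed by its marker score, Igf1 was 80.9 CPM in fibroblast-like and 99.9 CPM in macrophage or microglia-like cells, which then led in every set, and without fibroblast-like cluster 51 (described below) fibroblast-like cells (190 CPM) led. Endothelial-like cells followed at 26.0 CPM (20.1 to 33.6 over the sets), below every set value of both.
Igf1 was also counted in somatotroph-like cells, the growth hormone cells. Their level was 11.8, 14.1, 11.4 and 8.53 CPM in sets 1 to 4 and 11.5 CPM over all sets (10.9 to 12.0). The other abundant hormone class, the prolactin-making lactotroph-like cells, had 0.459 CPM, between 0.374 and 0.587 in the sets. Corticotroph-like cells had 0.847 CPM and gonadotroph-like cells 1.07 CPM. No set value of these 3 classes reached 2 CPM, and no set value of somatotroph-like cells was under 8 CPM. Melanotroph-like cells had 4.28 CPM (2.31 to 5.60 over the sets) and thyrotroph-like cells 2.52 CPM (0.902 to 3.82). Stem or folliculostellate-like cells had 6.94 CPM (4.54 to 8.94), which overlapped the range of somatotroph-like cells.
An Igf1 UMI was found in 1298 of 13048 somatotroph-like cells (9.95%, exact interval 9.44 to 10.5, median 10079.5 UMIs per cell) and in 27 of 8222 lactotroph-like cells (0.328%, median 6975.0 UMIs). T cell-like cells, which should lack the gene, had it in 1 of 349 (0.287%, median 1981.0 UMIs). With each cell thinned to 1000 UMIs the shares were 1.37% of 12938 somatotroph-like cells, 0.0370% of 8103 lactotroph-like cells and 0 of 342 T cell-like cells, with 110, 119 and 7 shallower cells left out. Somatotroph-like cells thus stood above lactotroph-like and T cell-like cells at full and at equal depth. Because the class is large, it held 53.9% of all Igf1 UMIs (1617 of 3001), with 20.6% in macrophage or microglia-like cells and 7.46% in fibroblast-like cells.
The 7 macrophage or microglia markers were summed beside this. Their sum was 10.8 CPM in the somatotroph-like class and 13.5 CPM in the lactotroph-like class. There were 1.06 Igf1 UMIs per marker UMI in somatotroph-like cells, 0.0341 in lactotroph-like cells and 0.00627 in macrophage or microglia-like cells themselves. Somatotroph-like cells with and without an Igf1 UMI had a macrophage or microglia marker UMI in 11.4% and 9.96% of cells and a fibroblast marker UMI in 26.8% and 32.2%. The part of macrophage or fibroblast RNA in the somatotroph-like level was not tested. The 3 somatotroph-like clusters had Igf1 at 10.7, 12.3 and 11.4 CPM.

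**Figure D2:**
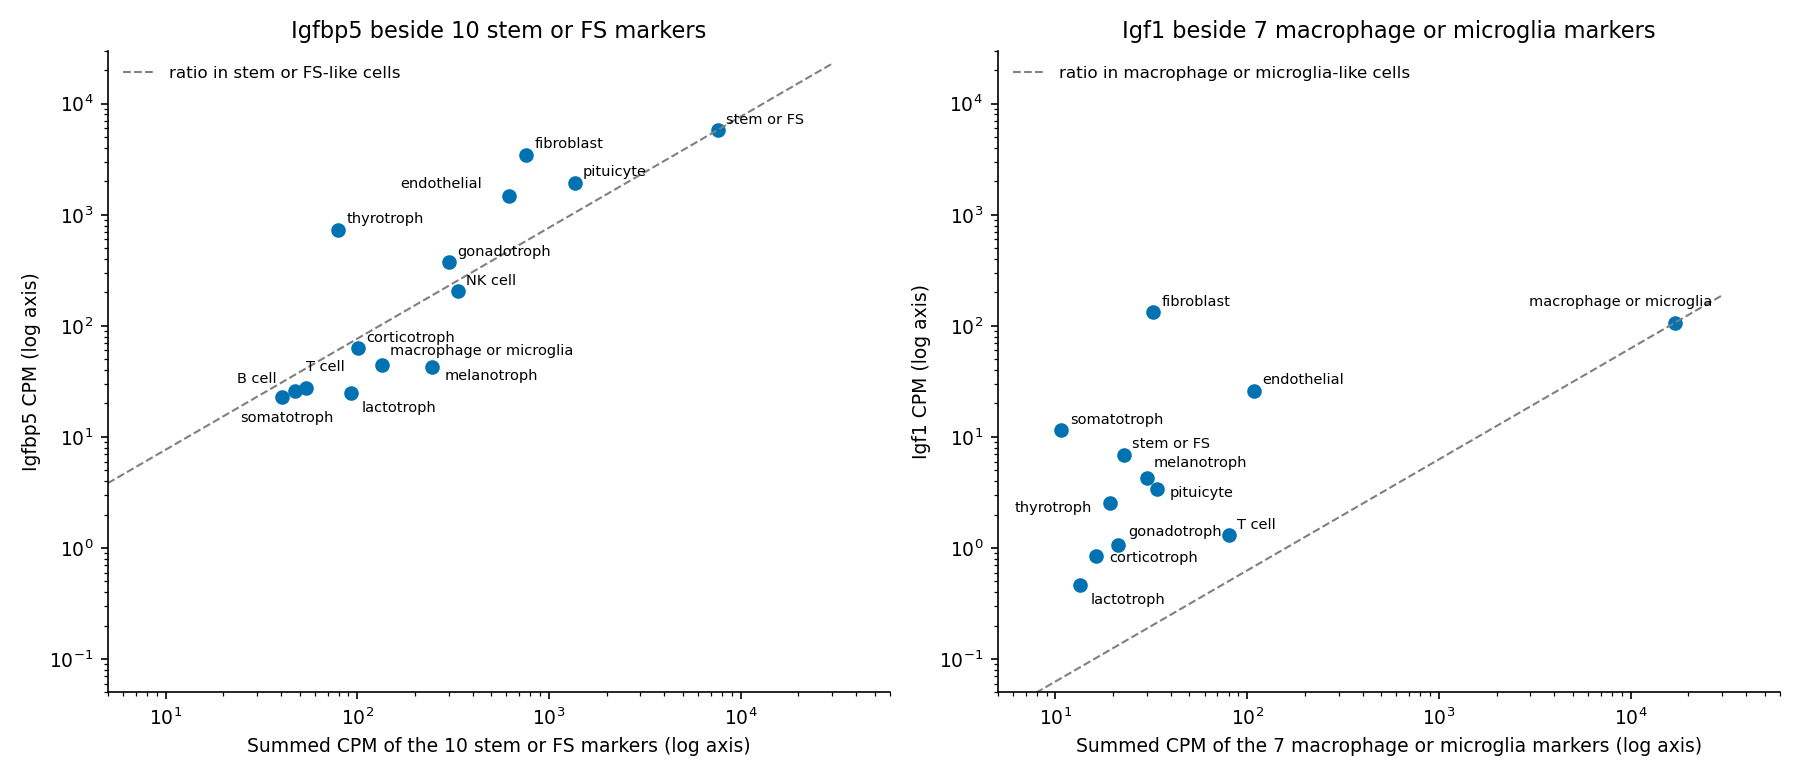
Level of Igfbp5 (left) and Igf1 (right) in the ranked classes and pituicyte-like cells against the summed level of the markers of 1 source class, both axes logarithmic in CPM, with the dashed line at the source's own ratio, FS for folliculostellate, and classes with no UMI of the gene left out. Thyrotroph-like cells lie far above the line on the left (9.25 Igfbp5 UMIs per stem or folliculostellate marker UMI), and on the right the classes drawn other than macrophage or microglia-like cells lie above the line, fibroblast-like (4.15 Igf1 UMIs per macrophage or microglia marker UMI) and somatotroph-like cells (1.06) the farthest. Dendritic-like cells, which are not drawn, had 1 Igf1 UMI and a ratio of 0.00162, below the line.

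Igf2, the second ligand, had 12 UMIs in 12 of the 36004 cells. They fell in somatotroph-like (4), lactotroph-like (4), fibroblast-like (3) and corticotroph-like cells (1), and no class had the 20 counts needed for ranking. In GENCODE vM21 (GRCm38), Igf2 (chromosome 7, 142650766 to 142666816, minus strand) overlaps Gm49394 and Mir483 on the same strand and Igf2os on the other, and Gm49394 had 0 UMIs in the kept cells. Reads that fit both genes cannot be given to either, so the level of Igf2 is uncertain. The neighbouring imprinted RNA H19 had 56 UMIs in 25 fibroblast-like cells (33.5 CPM, with 15, 13, 16 and 12 UMIs in sets 1 to 4), and its next highest ranked class was at 0.165 CPM. All but 1 of these UMIs were in fibroblast-like cluster 51, as were the 3 fibroblast-like Igf2 UMIs. H19 is named after its values were seen.

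Igfbp3, the main carrier of IGFs in blood, was close to an endothelial transcript. Endothelial-like cells had 3249, 3446, 2781 and 2277 CPM in sets 1 to 4 and 2924 CPM over all sets (2869 to 2980, 10554 UMIs). The next ranked class, fibroblast-like cells, was 181-fold lower at 16.1 CPM, and pituicyte-like cells were at 16.3 CPM. Among the 740 genes that led in endothelial-like cells, Igfbp3 was number 2 by CPM and number 5 by fold over the next class. An Igfbp3 UMI was present in 88.0% of 885 endothelial-like cells (85.7 to 90.1, median 2765.0 UMIs) and 0.573% of T cell-like cells, and in 77.2% of endothelial-like cells at 1000 UMIs.
Below endothelial-like cells, the hormone classes had low but unequal levels. Corticotroph-like cells had 10.9, 7.94, 8.11 and 12.2 CPM in the 4 sets, against at most 1.51 CPM in any set of lactotroph-like and somatotroph-like cells. NK cell-like cells had 11.9 CPM (3.24 to 30.4, 4 UMIs) and T cell-like cells 3.93 CPM (0.811 to 11.5, 3 UMIs). At 1000 UMIs the share with a UMI was 0.908% in corticotroph-like, 1.67% in NK cell-like and 0.292% in T cell-like cells. A corticotroph-like level above that of lymphocytes was therefore not shown. Corticotroph-like cells had 0.849 Igfbp3 UMIs per endothelial marker UMI, above the 0.308 of endothelial-like cells. In gonadotroph-like cells the level was 11.1, 4.04, 3.91 and 40.7 CPM, and 1 cell of set 4 held 24 of that set's 119 UMIs. The 61 gonadotroph-like cells with an Igfbp3 UMI had endothelial markers at 308 CPM and the 903 without it at 18.5 CPM; the part of endothelial RNA in these cells was not tested further. Without set 4 the gonadotroph-like level was 5.12 CPM.

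Igfbp5, a matrix-bound binding protein, had the most UMIs of the 8 genes (148945, of which 70.4% were in stem or folliculostellate-like cells, the Sox2-positive support and progenitor cells of the gland). The level there was 5952, 6302, 6175 and 4814 CPM in sets 1 to 4 and 5821 CPM over all sets (5786 to 5857), which made Igfbp5 number 3 by CPM of the 753 genes leading in that class. By fold over the next class it was number 552, because fibroblast-like cells reached 3485 CPM (3236 to 4344 over the sets). The set ranges of these classes did not overlap. Pituicyte-like cells (1947 CPM; 2205, 673, 2045 and 1696) and endothelial-like cells (1480 CPM; 1656, 1912, 1199 and 1264) came next and overlapped each other.
Among hormone cells Igfbp5 separated thyrotroph-like and gonadotroph-like cells, the makers of thyrotropin and the gonadotropins, from the others. Thyrotroph-like cells had 887, 724, 732 and 645 CPM and gonadotroph-like cells 349, 382, 256 and 449 CPM, and these ranges did not overlap. Corticotroph-like cells were at 62.9 CPM (39.6 to 84.6). Lactotroph-like (24.6 CPM) and somatotroph-like cells (22.9 CPM) were at the level of T cell-like (27.5 CPM) and B cell-like cells (25.9 CPM), which is read as background.
An Igfbp5 UMI was found in 97.8% of stem or folliculostellate-like cells, 74.3% of 719 thyrotroph-like cells (70.9 to 77.4), 73.6% of endothelial-like cells and 71.8% of 964 gonadotroph-like cells (68.8 to 74.6). It was found in 15.9% of somatotroph-like, 8.57% of lactotroph-like and 2.87% of T cell-like cells, whose median depths were 10079.5, 6975.0 and 1981.0 UMIs. At 1000 UMIs per cell the share was 58.4% in endothelial-like, 42.7% in thyrotroph-like and 22.7% in gonadotroph-like cells, and 2.23%, 2.15% and 2.34% in somatotroph-like, lactotroph-like and T cell-like cells. The 10 stem or folliculostellate markers summed to 79.6 CPM in thyrotroph-like cells and 302 CPM in gonadotroph-like cells. Per marker UMI there were 9.25 Igfbp5 UMIs in thyrotroph-like, 1.24 in gonadotroph-like and 0.766 in stem or folliculostellate-like cells. Gonadotroph-like cells with an Igfbp5 UMI had these markers at 300 CPM (75.7% of cells with a marker UMI) and those without at 316 CPM (57.0%), with median depths of 14982.5 and 5937.0 UMIs. Thyrotroph-like cells with an Igfbp5 UMI had them at 82.9 CPM (40.4% of cells) and those without at 66.1 CPM (25.9%), with median depths of 6774.5 and 4512.0 UMIs. The part of stem or folliculostellate RNA in these levels was not tested further.
Igfbp5 in NK cell-like cells (205 CPM) came from 1 set: it was 29.6, 20.9, 1103 and 25.6 CPM, and 2 of 20 cells in set 3 held 62 UMIs. Without set 3 it was 24.97 CPM, the level of the other lymphocytes.

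Igfbp2 and Igfbp4 were shared by fibroblast-like and pituicyte-like cells. Igfbp2, a binding protein of developing and neural tissue, had 312, 440, 517 and 383 CPM in fibroblast-like cells and 432 CPM over all sets (401 to 464). In pituicyte-like cells it had 283, 178, 205 and 201 CPM (234 CPM, 210 to 260), below the fibroblast-like range. Stem or folliculostellate-like cells followed at 37.0 CPM (27.1 to 48.9) and held 27.9% of Igfbp2 UMIs by their number, against 30.3% in fibroblast-like cells. Among hormone cells gonadotroph-like cells had 7.19 CPM (5.53 to 10.3) and somatotroph-like cells 0.156 CPM. The 75 gonadotroph-like cells with an Igfbp2 UMI had fibroblast markers at 59.8 CPM (26.7% of cells with a marker UMI) and the 889 without it at 18.6 CPM (10.5%), with median depths of 17135.0 and 12354.0 UMIs; the part of fibroblast RNA was not tested. T cell-like and B cell-like cells had no Igfbp2 UMI, and 0 of 349 T cell-like cells allows a share of up to 0.860% by the limit of 3 counts and 1.05% by the exact interval, both for cells with a UMI at a median of 1981.0 UMIs.
Igfbp4, which often restrains IGF action until it is cut by pappalysin, had 995, 732, 789 and 993 CPM in pituicyte-like cells and 699, 840, 820 and 679 CPM in fibroblast-like cells. Pooled, pituicyte-like cells were at 937 CPM (889 to 988) and fibroblast-like cells at 768 CPM (727 to 811). The set ranges overlapped, and the order turned in sets 2 and 3. Endothelial-like cells were lower in every set, at 166, 189, 175 and 167 CPM (174 CPM, 160 to 188). No hormone class exceeded 3 CPM over all sets. A UMI was found in 82.8% of pituicyte-like, 77.9% of fibroblast-like, 38.3% of endothelial-like and 1.15% of T cell-like cells.
Igfbp6, which prefers IGF2, had 80.4% of its UMIs (1561 of 1942) in fibroblast-like cells, which were 1.16% of the cells. Most of these were in 1 of their 2 clusters: cluster 51 held 62.6% of all Igfbp6 UMIs (1215) and cluster 44 held 17.8% (346). The level was 1192, 1186, 753 and 797 CPM in sets 1 to 4 (933 CPM, 888 to 981). Endothelial-like cells, the next ranked class, were 26.9-fold lower at 34.6 CPM (25.2 to 49.7), and 8.69-fold below fibroblast-like cells without cluster 51. Neutrophil-like cells, with 31 cells, had 6 UMIs.
Igfbp7, which Polr2b and Gm34648 overlap on the other strand, was high in both fibroblast-like and endothelial-like cells. Fibroblast-like cells had 1907, 2426, 1958 and 1719 CPM (1996 CPM, 1928 to 2064) and endothelial-like cells 854, 1205, 933 and 930 CPM (968 CPM, 936 to 1001). The ranges did not overlap, and the fold between the classes was 2.06. Stem or folliculostellate-like cells were 30.1-fold below endothelial-like cells at 32.1 CPM. A UMI was present in 95.2% of fibroblast-like, 81.1% of endothelial-like, 19.5% of stem or folliculostellate-like and 0.287% of T cell-like cells, with median depths of 3366.0, 2765.0, 6676.5 and 1981.0 UMIs.

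Clusters within a class differed in the members, which had been left out of the clustering. The fibroblast-like class held cluster 44 (289 cells) and cluster 51 (128 cells). Of the 8 fibroblast markers, cluster 44 had more Lum (1387 against 277 CPM), Pdgfra (601 against 80.3 CPM), Dcn (9293 against 5368 CPM), Col1a1 (818 against 509 CPM) and Col1a2 (1289 against 956 CPM). Cluster 51 had more Fbln1 (713 against 388 CPM), Ogn was close (1442 and 1377 CPM), and Dpt had 2 UMIs in cluster 44 and 0 in cluster 51. Cluster 51 also had more Cldn11 (775 against 219 CPM), Slc47a1 (186 against 3.48 CPM) and Sfrp4 (1335 against 74.8 CPM), genes known from the membranes around the brain and from matrix-rich fibroblasts and picked after their values were seen. Igf1 was 204, 107, 220 and 209 CPM in cluster 44 and 9.84, 15.2, 23.1 and 0 CPM in cluster 51. Igfbp2 was 475 to 638 CPM in cluster 44 and 53.2 to 100.1 CPM in cluster 51.
Igfbp6 went the other way, with 317, 364, 281 and 267 CPM in cluster 44 and 2499, 2818, 2373 and 1765 CPM in cluster 51. None of these 3 pairs of ranges overlapped. Igfbp4 (788 and 725 CPM) and Igfbp7 (2158 and 1639 CPM) were closer, with overlapping set ranges. Among single fibroblast-like cells, Igf1 and Igfbp6 were detected together in 58 of 417 where the separate shares give 71.4, Igfbp2 and Igfbp6 in 117 where they give 145, and Igf1 and Igfbp2 in 82 where they give 61.2.
Cluster 51 had no fibroblast marker among its top 10 genes, and the rule that named it was loosened after its values had been seen. Without it, the fibroblast-like level was 301 CPM for Igfbp6 and 190 CPM for Igf1. Igf1 then led in fibroblast-like cells in every set, which makes 7 members with a leading class.
Macrophage or microglia-like cells held 4 clusters. Igf1 was 289, 200.5, 270 and 224 CPM in cluster 33 (375 cells), 34.5 to 62.5 CPM in cluster 37 (565 cells), 37.96 to 69.3 CPM in cluster 45 (287 cells) and 67.3 to 107 CPM in cluster 46 (356 cells, median 750.5 UMIs). Cluster 33 lay above the others in each set. Of the perivascular macrophage markers, it also had the most Mrc1 (243 CPM, a receptor of tissue-resident macrophages) and Pf4 (132 CPM). The same held for F13a1 (22.0 CPM), Cbr2 (11.6 CPM) and Cd163 (6.10 CPM). Folr2 of that list was highest in cluster 45 (11.9 CPM, against 3.66 CPM in cluster 33), and Lyve1 had 0 UMIs in all 4 clusters. Cluster 45 had the most P2ry12 (189 CPM, a microglial receptor).
The 3 endothelial-like clusters had Igfbp3 at 1628, 2920 and 3589 CPM (clusters 32, 40 and 42) and Igfbp7 at 508, 1486 and 1064 CPM. Their median depths were 1531.5, 4407.0 and 2772.5 UMIs. Cluster 40 (101 cells) had the highest Igf1 (62.4 CPM, 42.8 to 119) and Igfbp4 (309 CPM) and the lowest Igfbp5 (725 CPM), and it also passed 3 of 11 mural markers. Of the arterial markers, Gja5 had 0 UMIs in all 3, Bmx had 1 UMI in cluster 32 only, and Gja4, Hey1 and Sema3g were between 3.67 and 15.8 CPM. Of the venous markers, Ackr1 had 0 UMIs in all 3 and Vwf 3 UMIs in cluster 42 only. Nr2f2 was at 222, 318 and 356 CPM in clusters 32, 40 and 42, and Vcam1 went the other way at 7.70, 3.67 and 3.45 CPM. Plvap, of fenestrated capillaries and also a naming marker of the class, was at 1773, 3087 and 4085 CPM, in the same order as Igfbp3. Of the same list, Plpp3 kept that order (651, 825 and 1338 CPM). Esm1 did not, at 20.2, 116 and 57.2 CPM, and was highest in cluster 40. The part of RNA from other cells in these differences was not tested.
Stem or folliculostellate-like cluster 39 (388 cells, median 18553.0 UMIs) had Igfbp5 at 3973 CPM (3195 to 4978), and the other 3 clusters at 6664, 7204 and 7950 CPM. It also had Gh, the growth hormone gene, at 148614 CPM, against 11427 to 64584 CPM in the others. Without cluster 39 the class was at 7196 CPM. The part of somatotroph RNA in cluster 39 was not tested.

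**Figure D3:**
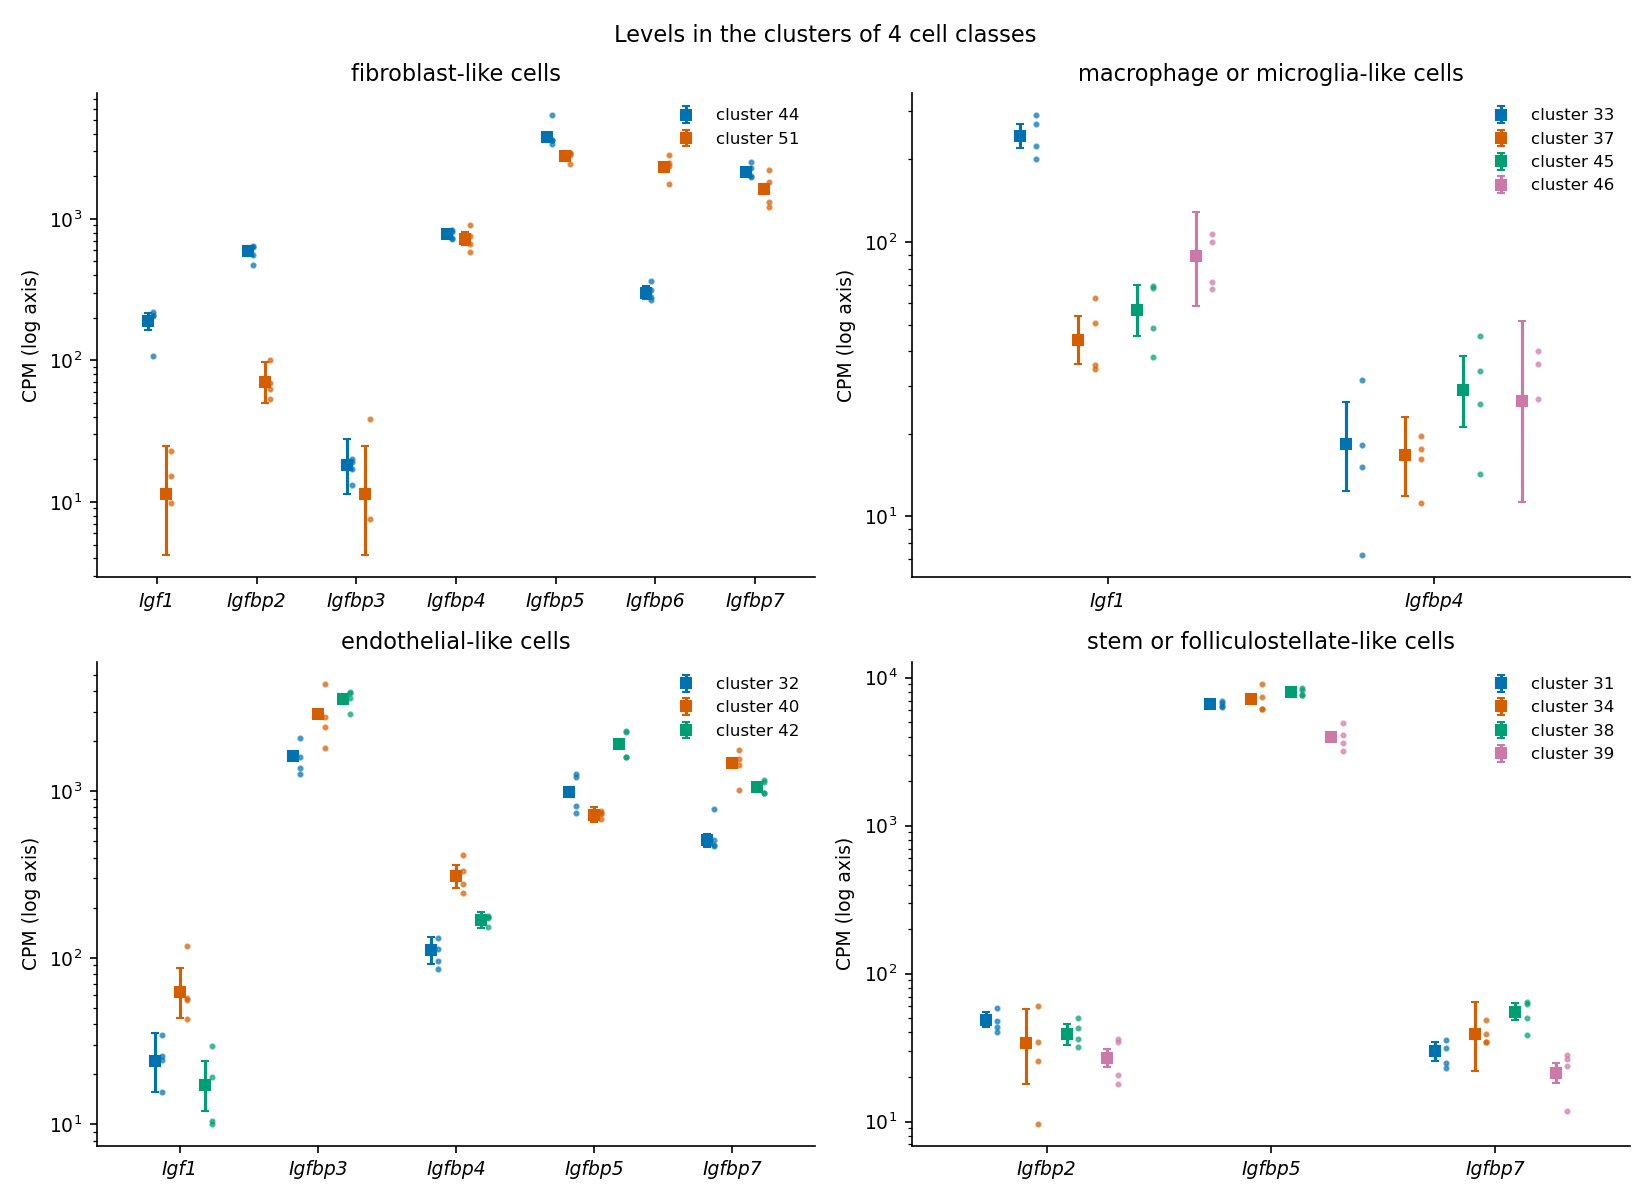
Levels of members (CPM, log axis) in the clusters of 4 classes, with squares for all cells of a cluster, bars for the Poisson 95% interval and small points for the barcode sets with a UMI. Igf1 and Igfbp2 are higher in fibroblast-like cluster 44 and Igfbp6 in cluster 51, and Igf1 is highest in macrophage or microglia-like cluster 33.

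A large part of the vascular members lay outside the named classes. Unnamed cells held 30.8% of Igfbp3 UMIs, 29.5% of Igfbp7 UMIs, 19.6% of Igfbp4 UMIs and 19.4% of Igfbp2 UMIs. Most came from cluster 48 (195 cells, median 8489.0 UMIs), which passed 9 of 11 mural, 7 of 7 endothelial and 7 of 8 fibroblast markers. It had Igfbp3 at 1571 CPM, Igfbp7 at 1327 CPM, Igfbp5 at 2371 CPM, Igfbp4 at 380 CPM, Igfbp2 at 204 CPM and Igf1 at 63.8 CPM. Only 4 of its cells had no endothelial marker UMI and 8 more had 1 to 4, so the levels of mural cells, which wrap capillaries, could not be told apart from those of endothelial-like cells. Cluster 50 (106 cells, median 16919.0 UMIs) passed endothelial and stem or folliculostellate markers together and had Igfbp5 at 4729 CPM and Igfbp3 at 928 CPM.

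**Figure D4:**
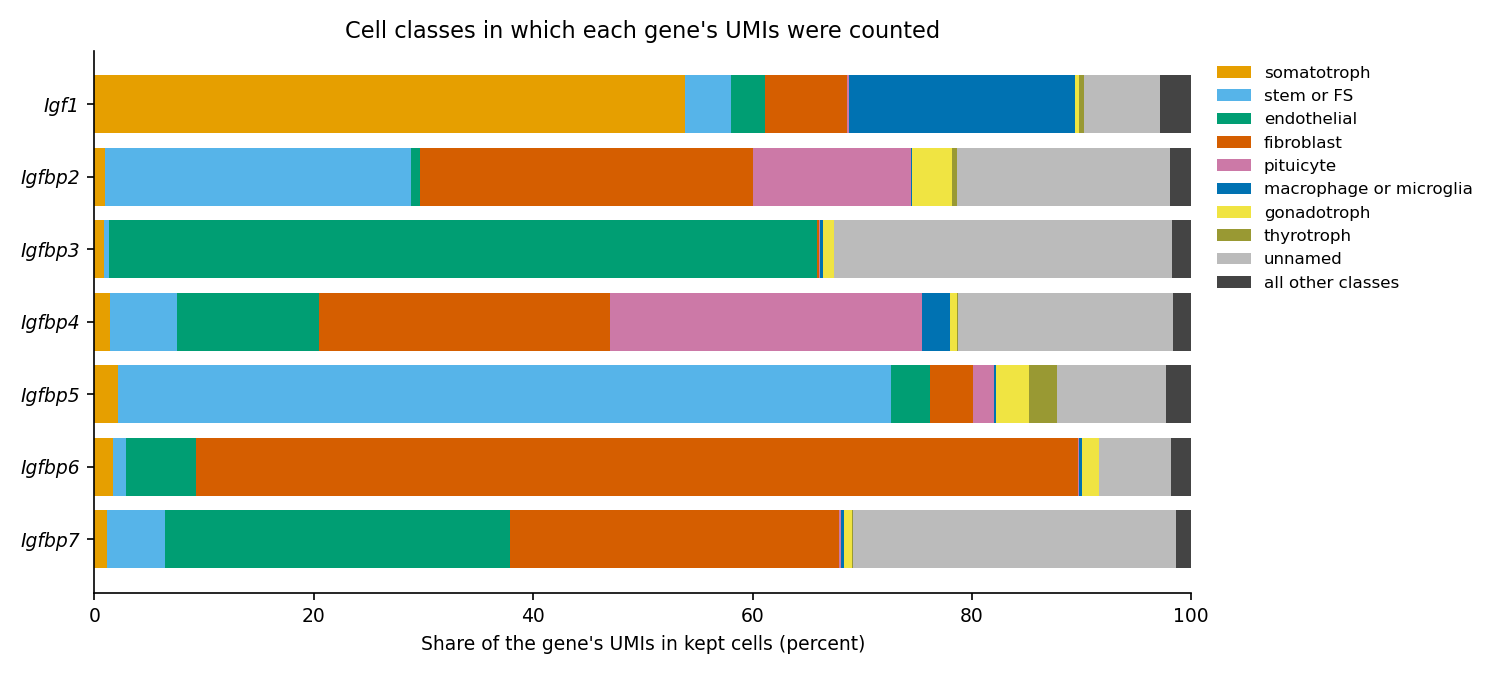
Share of each gene's UMIs in kept cells (x axis, percent) by the class in which they were counted (colours), for 7 genes. Somatotroph-like cells hold 53.9% of Igf1, stem or folliculostellate-like cells 70.4% of Igfbp5, endothelial-like cells 64.5% of Igfbp3 and fibroblast-like cells 80.4% of Igfbp6.

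Summed over the 6 binding protein genes, fibroblast-like cells had 7630 CPM (6977 to 8462 over the sets), stem or folliculostellate-like cells 5912 CPM (4881 to 6397), endothelial-like cells 5586 CPM (4666 to 6807) and pituicyte-like cells 3149 CPM (1602 to 3536). The range of fibroblast-like cells lay above the other 3, and the ranges of the next pair overlapped. The makeup differed: 98.5% of the sum in stem or folliculostellate-like cells was Igfbp5, while fibroblast-like cells had 45.7% Igfbp5, 26.2% Igfbp7, 12.2% Igfbp6, 10.1% Igfbp4 and 5.66% Igfbp2. Among hormone classes the sum was 742 CPM in thyrotroph-like, 406 CPM in gonadotroph-like and 25.7 CPM in somatotroph-like cells.

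**Figure D5:**
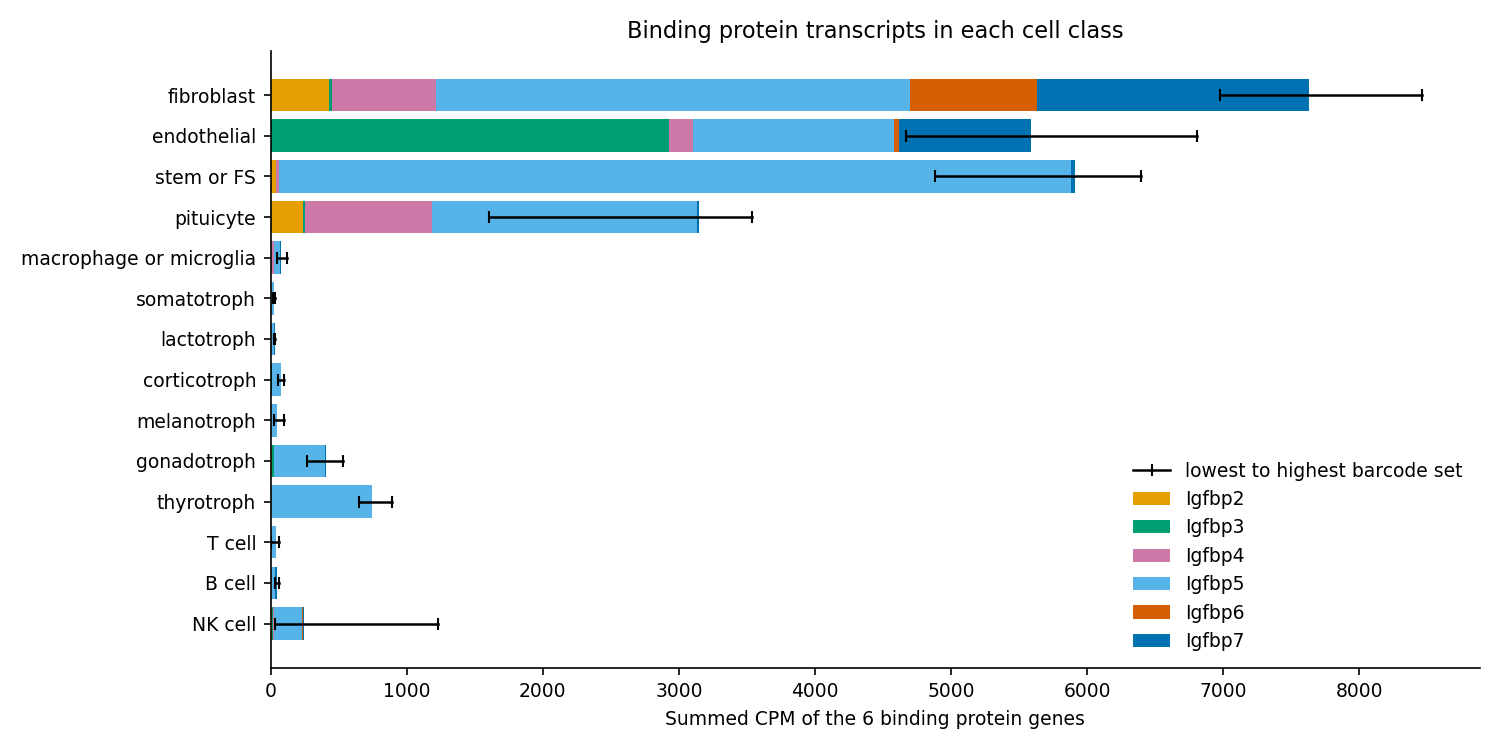
Summed level of the 6 binding protein genes (x axis, CPM) in 14 classes, split by gene (colours), with a black line from the lowest to the highest barcode set. The 4 classes at the top reach 3149 to 7630 CPM, and the only hormone classes above 100 CPM are thyrotroph-like and gonadotroph-like cells.

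Other genes of the axis were taken from a list of 36, all in the deposited table. Of the 32 with at least 20 counts in their top class, 21 led in 1 class in every set, where the share over all genes was 36.8%. Fibroblast-like cells led for 8 (4.45% of all genes) and stem or folliculostellate-like cells for 5 (4.89%). Corticotroph-like (4.39%), endothelial-like (4.8%) and melanotroph-like cells (2.25%) led for 2 each, and gonadotroph-like (3.64%) and somatotroph-like cells (0.584%) for 1 each. When the class sums were thinned to the smallest, 15 of the list had enough counts and 9 led, where the share over all genes was 27.7%. Of the 21 calls, 8 were kept there. Under the other alternatives 11 of the 21 calls held throughout, and those of Irs1, Htra1, Stc2, Ghr, Socs2, H19, Igf2bp3, Ccn1, Ccn2 and Ccn3 were lost at least once.
Of the receptors, Igf1r was broad among hormone and non-hormonal tissue classes and lowest in T cell-like cells. It was at 230 CPM in pituicyte-like cells, which were not ranked (59.3 to 242 over the sets), 204 CPM in melanotroph-like cells (171 to 240 over the sets), 199 CPM in stem or folliculostellate-like, 181 CPM in somatotroph-like, 176 CPM in lactotroph-like, 75.9 CPM in corticotroph-like and 6.56 CPM in T cell-like cells, and no class led in every set. With the hormone genes left out of the UMI sum, somatotroph-like cells led for Igf1r. The insulin receptor Insr led in endothelial-like cells (323 CPM, 294 to 357). Thyrotroph-like cells were the next ranked class at 66.1 CPM, and pituicyte-like cells were at 68.0 CPM. Igf2r was at 80.3 CPM in pituicyte-like cells (39.6 to 88.4), had its highest ranked level in T cell-like cells (61.6 CPM, 47 UMIs) and led in no class. Lrp1, a receptor that also binds IGFBP3, led in fibroblast-like cells (876 CPM, next ranked class 132 CPM). Monocyte-like (248 CPM) and pituicyte-like cells (196 CPM), which were not ranked, lay between.
Of the adaptors, Irs2 led in corticotroph-like cells (600.5 CPM, next 414 CPM) and Shc1 in fibroblast-like cells (126 CPM, next 47.5 CPM).
Among the proteases that cut binding proteins, Pappa2 led in somatotroph-like cells (101 CPM, 98.0 to 106), with thyrotroph-like cells the next ranked class at 25.2 CPM. Its relative Pappa was highest in the same class at 11.4 CPM but did not lead in every set, although it did under 5 alternatives. Htra1 (299 CPM) and Htra3 (291 CPM) led in fibroblast-like cells, and pituicyte-like cells, which were not ranked, had Htra1 at 409 CPM and led for it when set 2 was left out; the Htra1 lead was also lost with classes by marker score. Of the stanniocalcins, which inhibit pappalysins, Stc1 led in stem or folliculostellate-like cells (33.9 CPM) and Stc2 in melanotroph-like cells (15.5 CPM), the latter not under the stricter cell filter.
On the growth hormone side, the receptor gene Ghr led in fibroblast-like cells (61.0 CPM, 43.4 to 71.3), with thyrotroph-like cells next at 32.6 CPM, and pituicyte-like cells were at 69.4 CPM. This lead was lost with classes by marker score, and passed to pituicyte-like cells when set 2 was left out. Somatotroph-like cells had Ghr at 3.29 CPM (2.91 to 3.77). Socs2, a target and brake of the receptor, led in stem or folliculostellate-like cells (350 CPM, next 284 CPM in fibroblast-like cells), but not without cluster 51 or with each cell weighted equally.
Of the genes with a related protein domain, Ccn1 (1104 CPM) and Kazald1 (134 CPM) led in stem or folliculostellate-like cells, Ccn2 in endothelial-like cells (230 CPM), Ccn3 in fibroblast-like cells (109 CPM) and Esm1 in melanotroph-like cells (366 CPM). All fibroblast-like Ccn3 UMIs were in cluster 51, and the Ccn1 and Ccn2 leads were lost when set 2 was left out. The RNA-binding Igf2bp2 led in stem or folliculostellate-like cells (44.5 CPM) and Igf2bp3 in corticotroph-like cells (38.1 CPM), the latter neither with the hormone genes left out of the UMI sum nor with each cell weighted equally. Igfbp1, the neighbour of Igfbp3 and otherwise a liver gene, had few UMIs but nearly all in gonadotroph-like cells: 39 UMIs in 33 cells, 5, 17, 8 and 9 in the sets, against 1 UMI in melanotroph-like cells and 0 in every other named class. It is named here after its values were seen.

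The genes most like each member across the 13 ranked classes were taken by Pearson r of log2(CPM + 1), among 16772 genes. These are descriptions over 13 classes of the same 4 sets. Igfbp3 was nearest to Adgrl4 (r = 0.966), Sox18 (0.966) and Flt1 (0.964), all endothelial genes. Igfbp7 was nearest to Col4a1 (0.966), Bgn (0.963) and Ramp2 (0.958), and Igfbp4 to Zcchc24 (0.981), Igfbp7 (0.937) and Col4a1 (0.919). Igfbp6 was nearest to Dpep1 (0.976), Lamc3 (0.967) and Pdgfra (0.963, a naming marker of fibroblast-like cells), and Igfbp2 to Adgra2 (0.963), Slc25a34 (0.962) and Fbln7 (0.946). Igfbp5 was nearest to Pcdh7 (0.929), Cpne3 (0.927) and Dpysl3 (0.926), and Igf1 to Cd302 (0.943), Ccdc152 (0.917) and Agmo (0.916).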

How the data were processed

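Single-cell UMI counts per gene and barcode were deposited by the authors in 1 matrix, written by Cell Ranger 8.0.1 per the file headers. The submitters' processing notes name Cell Ranger and Seurat, with build and annotation not given in the sources used here. Gene positions are those of GENCODE on GRCm38, and strand use in counting is unknown. Features and barcodes tables hold names only.

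Barcodes with at least 500 UMIs, 250 genes and at most 25% mitochondrial UMIs were kept (567 removed). Scrublet in scanpy 1.11.5 marked 3835 doublets (9.63%, 8.32% to 11.2% per set), which were removed. Its default setting had failed in 2 sets, so an expected rate of 8% and genes in at least 3 cells were used. Clusters came from 2000 variable genes without the members, 30 components, 15 neighbours and Leiden resolution 1.0 (igraph 0.11.9), with a second round for cells other than hormone cells. A name needed 3 markers at a log2 fold of 0.5 and in 25% of cells. A cluster stayed unnamed if it passed at least 3 markers and 50% of the list of an unrelated class, or if another class had at least 2 more markers among its top 10 genes. It also stayed unnamed if it had few UMIs and no own marker there. These thresholds and the second round were set after seeing the data, and the members and lists were chosen with earlier results of these data known.

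Counts were summed per class and set. Shares have exact Clopper-Pearson 95% intervals, and the floor for 0 was 3 counts. Intervals cover counting error only. Scripts were tested on simulated data. Named genes were the 8 members, axis genes that led in a class with at least 100 counts, and the 3 genes most like each member; others are said to be chosen after their values were seen or serve to describe a result. Alternatives were other doublet, filter, clustering, naming, scaling, weighting and depth choices and leaving out each set. The planned edgeR diet test was not run, since no barcode was tied to a library.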

Additional observations from a re-analysis of the deposited data

How the results depend on the processing

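The number of members with a leading class was 6 in the analysis reported and 5 to 7 under 17 alternatives, 4 of them chosen after seeing the data, and leaving out each set gave 5 to 6. The number of other axis genes with a leading class was 19 to 23 under all alternatives but that of class sums thinned to the smallest, where it was 9 and each class had fewer counts, and leaving out each set gave 20 to 23. The log2 lead of fibroblast-like cells for Igfbp4 over the next class was -0.34 to 2.19 when each set was left out, and it was -0.34 without set 2, where pituicyte-like cells could be ranked and were higher. With classes by marker score, Igf1 led in macrophage or microglia-like cells in every set, and the fibroblast-like level of Igfbp6 fell to 439 CPM. With doublets kept, Igfbp3 in endothelial-like cells was 1889 CPM. With the hormone genes left out of the UMI sum, Igf1 in somatotroph-like cells was 20.6 CPM. The cause of these shifts was not tested. No paired analysis was possible because the barcodes carry no replicate numbers. Class names were rebuilt here, and small classes limit what the counts show for low genes.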
